A study of Mus musculus with 6 samples.

Results

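The genes described here are Atf4, 13 further genes of the response it directs and 20 genes of cytosolic aminoacyl-tRNA synthetases. They were taken by gene symbol, and all 34 were present among the 23282 entries of each count file. The RNA came from regulatory T cells (Treg), which hold immune responses in check and were sorted from the spleens of C57BL/6 mice and left unstimulated. There were 3 wild type libraries and 3 libraries of the IPMK cKO genotype, a conditional knockout of Ipmk, the gene of an inositol polyphosphate kinase. The labels call the libraries of each genotype biological replicates. Whether each came from its own animal, the promoter that drives the recombinase and the age of the mice have no statement in the sources used here. The p-values thus rest on the spread among these 6 libraries alone, part of which may be technical.

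ATF4 is a transcription factor of the integrated stress response. Kinases that sense amino acid shortage, unfolded protein in the endoplasmic reticulum, haem shortage or double-stranded RNA phosphorylate the initiation factor eIF2, which lowers general translation while the ATF4 protein is made at a higher rate. ATF4 then raises genes of amino acid synthesis and uptake and of transfer RNA charging, together with feedback genes such as Ddit3 and Trib3. In T cells this programme is known for supplying serine, glycine and one-carbon units to growing cells. Because much of the control of ATF4 lies in translation, its mRNA level does not report the protein, which was not measured here.

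The element that ATF4 and its C/EBP partners bind has the core TGATGNAA, and sites found in the promoters of 8 members are shown because they mark the genes with a candidate contact for the factor. RefSeq promoter windows of GRCm38.p6, from 250 bases before to 50 after each start site, were available for 26 of the 34 members and not for Lars, Mars, Rars, Cars, Hars, Nars, Vars or Wars. On either strand, 9 of these 26 members held the core, against 4.51% of the 27025 genes with a window and 3.97% of the 32851 windows. The stricter TGATGCAA, which is contained in the first motif, was held by 6 of the 26 members and 1.03% of the genes. The endoplasmic reticulum stress element, CCAAT and CCACG with 9 bases between them, was in the window of 0 of the 26 members and 0.137% of the genes. Since many members are textbook ATF4 targets, the higher share describes the choice of genes. Each site is written 5′ to 3′ on the strand of its gene with the 8 bases of the match in capitals. A match on the opposite strand reads as the reverse complement of the core.
Atf3: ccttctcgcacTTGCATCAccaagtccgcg
Chac1: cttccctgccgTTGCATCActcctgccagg
Trib3: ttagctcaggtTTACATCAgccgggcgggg
Asns: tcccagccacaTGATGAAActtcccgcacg
Gars: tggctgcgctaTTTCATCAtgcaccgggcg
Iars: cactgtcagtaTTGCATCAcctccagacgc
Tars: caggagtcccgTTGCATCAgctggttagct
Yars: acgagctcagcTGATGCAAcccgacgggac
The site of Atf3, the gene of a stress-induced repressor, was at chr1:191183425-191183454 on the minus strand, and that of Chac1, the gene of a glutathione-degrading enzyme, at chr2:119351038-119351067 on the plus strand. Those of Trib3 (chr2:152344028-152344057, minus) and Asns (chr6:7693214-7693243, minus) lay close to the start site, as did those of Gars (chr6:55037960-55037989, plus), Iars (chr13:49682126-49682155, plus), Tars (chr15:11399655-11399684, minus) and Yars (chr4:129189895-129189924, plus). The matches of Trib3, Iars and Yars began at bases 15, 8 and 4 of the transcript and the other 5 shown lay before the start.

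Libraries held 7464546 to 8980395 counts, of which the ribosomal RNA precursor Rn45s took 16.7% to 32.1%. Levels are CPM, counts scaled to a common library size by TMM, a method that makes the bulk of genes equal between libraries. Ipmk, the targeted gene (chromosome 10, 71347763 to 71433327 on mm10), was at 15.5, 10.5 and 10.3 CPM for wild type, against 0.422, 2.74 and 0 CPM for IPMK cKO replicates 1 to 3, without overlap. The Treg factor Foxp3 was at 10.3, 80.6 and 29.0 CPM for wild type, against 85.1, 72.0 and 82.3 CPM for IPMK cKO, and Cd4 at 296 to 451 CPM in all 6 libraries. Markers of other cells were partly present. Cd8b1 was at 2.11 to 12.2 CPM and Nkg7 at 13.7 to 51.8 CPM in all 6 libraries, Cd68 reached 7.92 CPM and Xcr1 9.88 CPM, while Cd8a, Ncr1 and Itgax had 0 counts in every library. IPMK cKO replicate 1 stood apart from the other libraries, with more genes far from the median of the rest than any of them, as given with the member counts for that library. Estimates without it are given for the gene groups and for the members whose estimate moved most.

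Across the comparison of genotypes none of the members was called. The filter on low counts left 30 of the 34 members among the 10475 genes tested. By edgeR's quasi-likelihood test with Benjamini-Hochberg adjustment over all genes, 0 of 30 members had an adjusted p under 0.05, where 0% of all genes tested did. At an unadjusted p under 0.05 by edgeR there were 0 members, against 143 higher and 125 lower among all 10475 genes tested. By limma-voom there were 0 members and by DESeq2 1, Atf4, the gene already known as high in 1 library. The shares over all genes are not given for these 2 tools, and DESeq2 called no member after adjustment. Every member tested had an edgeR adjusted p of 0.9999. Estimates lay above 0 for 20 members and below 0 for 10, with a median log2 fold change of 0.32 (IPMK cKO over wild type), beside a median of 0.03 over all genes tested. With library totals in place of TMM, 15 members were above 0 and 15 below, as Ddit3, Psat1, Iars, Mars and Qars went below 0. Without IPMK cKO replicate 1 the counts were 18 and 13 and the median fell to 0.08. The 3 libraries of IPMK cKO lay wholly above wild type for 0 of the 30 members, against 4.74% of all genes tested, and wholly below for 1, Hars, against 5.66%. These shares are near those of all genes.

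Atf4 itself was several-fold higher in 1 of the 6 libraries and level in the others. Atf4 (ENSMUSG00000042406, chromosome 15, 80255184 to 80257541, plus strand of mm10) was at 156, 204 and 153 CPM in wild type replicates 1 to 3 and at 757, 145 and 157 CPM for IPMK cKO replicates 1 to 3. Replicate 1 of IPMK cKO was thus 4.86-fold above the median of the other 5 libraries, which spanned 145 to 204 CPM, and the other IPMK cKO libraries lay within or just below the wild type range. The group means were 171 ± 28.4 CPM for wild type, against 353 ± 350 CPM for IPMK cKO (mean ± SD, 3 libraries each). The log2 fold change was 1.05 (SE 0.56), and it was −0.19 (SE 0.25) without IPMK cKO replicate 1, so the direction rested on that library.

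**Figure D1:**
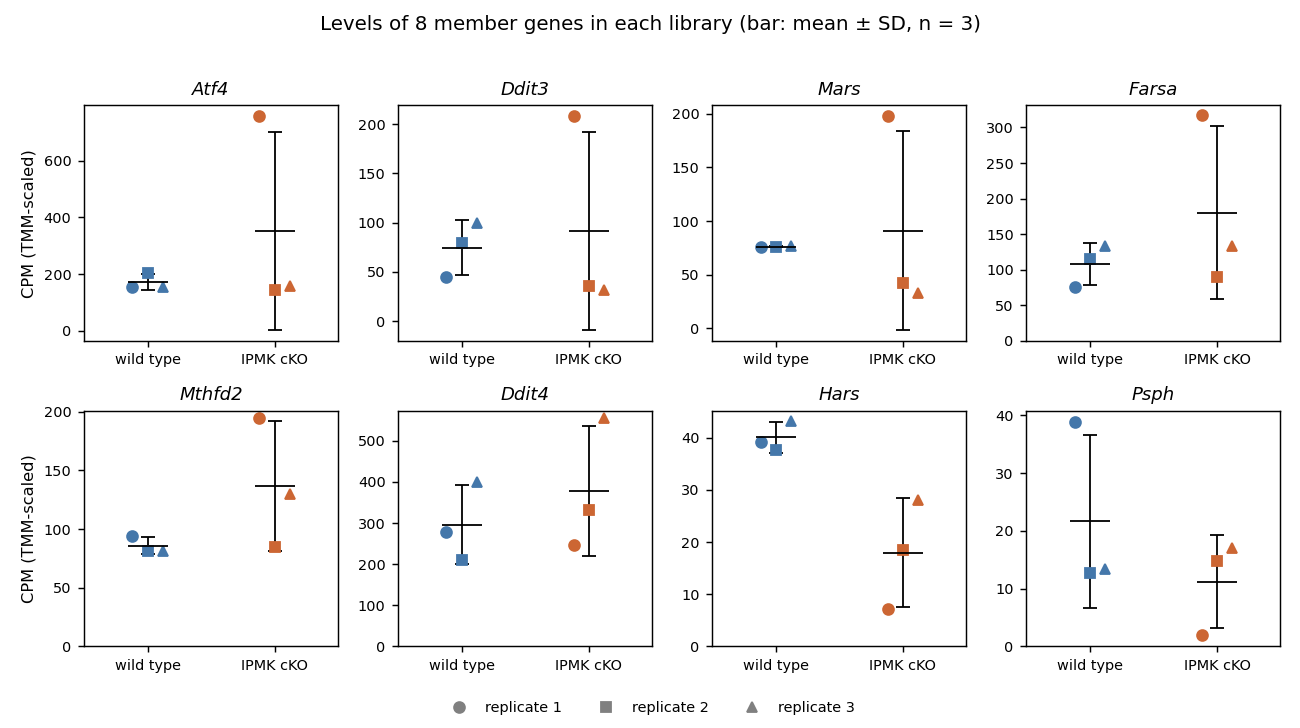
Levels of 8 members in CPM on TMM-scaled library sizes (y axis, from 0 or below where an error bar crosses 0) in the 3 wild type (blue) and 3 IPMK cKO (orange) libraries, with the marker shape giving the replicate and the bar the mean ± SD (n = 3). Replicate 1 of IPMK cKO is at 757 CPM for Atf4, and for Hars the 3 IPMK cKO libraries lie below the 3 wild type libraries.

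Ddit3 encodes CHOP, a transcription factor that ATF4 induces and that promotes cell death under lasting stress. It was at 44.5, 79.7 and 99.7 CPM for wild type, against 208, 35.7 and 31.6 CPM for IPMK cKO. The same library was high, by 4.67-fold over the median of the others, and the remaining IPMK cKO libraries were below all of wild type. With all libraries the log2 fold change was 0.30 (SE 0.66), and without IPMK cKO replicate 1 it was −1.15 (SE 0.41, edgeR unadjusted p = 0.0158, adjusted p = 0.9997). The library left out was the highest for Ddit3, so its removal lowers the estimate by construction. Without IPMK cKO replicate 2 or 3 the estimate was 0.64 (SE 0.67) or 0.70 (SE 0.64).

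Ddit3 has a neighbour among the synthetases. On chromosome 10 its transcript runs on the plus strand from 127290774 to 127296288 and that of Mars, the methionyl-tRNA synthetase, on the minus strand from 127311786 down to 127296221, so their 3′ ends overlap by 68 bases. Mars was at 76.2, 76.0 and 76.3 CPM for wild type, against 198, 42.5 and 32.5 CPM for IPMK cKO. It was therefore high and low in the same IPMK cKO libraries as Ddit3. The log2 fold change of Mars was 0.25 (SE 0.59) with all libraries and −1.03 (SE 0.33, edgeR unadjusted p = 0.00979, adjusted p = 0.9997) without IPMK cKO replicate 1, its highest library. Without IPMK cKO replicate 2 or 3 it was 0.55 (SE 0.61) or 0.65 (SE 0.55). The assay counts tags at the 3′ end and no source used here gives the strand setting of the counting, so reads of these genes cannot be told apart in the shared stretch. Summed into 1 entry, an alternative chosen after the values were seen, they gave 121, 156 and 176 CPM for wild type, against 406, 78.1 and 64.0 CPM for IPMK cKO. That sum had a log2 fold change of 0.28 (SE 0.60, edgeR unadjusted p = 0.65). Without IPMK cKO replicate 1 it was −1.09 (SE 0.29, edgeR unadjusted p = 0.00303, adjusted p = 0.9999). That library was the highest for Mars and for the sum, so leaving it out lowers both estimates by construction.

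The other transcription factors were scarce. Cebpb, a partner of ATF4 in binding the element shown above, was at 0, 5.74 and 0.416 CPM for wild type, against 0, 3.005 and 8.22 CPM for IPMK cKO. Its level differed more within each genotype than between them (log2 fold change 0.87, SE 2.36). Without IPMK cKO replicate 1 the estimate for Cebpb was 1.45 (SE 2.30). Atf3 had 0 counts in all 6 libraries, which allows up to 0.304 to 0.422 CPM in a library (3 counts, counting error only).

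Of the feedback and stress effectors, Ddit4 was the only one above the filter on low counts. Ddit4 encodes REDD1, an inhibitor of the growth kinase mTORC1. It was at 278, 210 and 400 CPM for wild type, against 248, 332 and 554 CPM for IPMK cKO, with the third replicate the highest of each genotype and the groups overlapping. The log2 fold change was 0.35 (SE 0.36), and without IPMK cKO replicate 3 it was −0.03. IPMK cKO replicate 1, where Atf4 was high, had the lowest Ddit4 level of its genotype.

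Sesn2, a leucine sensor and inhibitor of mTORC1, had 96 counts (13.5 CPM) in IPMK cKO replicate 1, 12 counts in wild type replicate 2 and 0 in the other 4 libraries. Trib3, a pseudokinase that restrains ATF4, had 8 counts in wild type replicate 2, 12 and 14 in IPMK cKO replicates 2 and 3 and 0 elsewhere. Chac1 had 1 count in all, in IPMK cKO replicate 2. The strongest single-library value among these scarce genes was thus that of Sesn2, in the library with the highest Atf4. Trib3 and Chac1, whose windows held the ATF4 core, had 0 counts in that library.

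Of the 6 enzymes of amino acid and one-carbon metabolism, 2 estimates were above 0 and 4 below (median −0.26, or −0.35 with the same counts without IPMK cKO replicate 1), and 0 were called. Serine is made by Phgdh, Psat1 and Psph in turn, and Shmt2 and Mthfd2 pass its carbon on to folate in the mitochondrion. Mthfd2 was at 94.2, 81.7 and 81.4 CPM for wild type, against 195, 84.5 and 130 CPM for IPMK cKO. It lay above all of wild type in 2 of the 3 IPMK cKO libraries (log2 fold change 0.67, SE 0.35, edgeR unadjusted p = 0.0858), and was 0.32 (SE 0.30) without IPMK cKO replicate 1.

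Psat1 was at 14.3, 15.7 and 36.7 CPM for wild type, against 49.4, 19.9 and 5.68 CPM for IPMK cKO. Its log2 fold change was 0.16 (SE 0.79), or −0.81 (SE 0.76) without IPMK cKO replicate 1. Psph was at 38.9, 12.7 and 13.3 CPM for wild type, against 1.97, 14.8 and 16.9 CPM for IPMK cKO. The log2 fold change of Psph was −0.94 (SE 0.91), or −0.46 (SE 0.70) without IPMK cKO replicate 1. These consecutive enzymes went opposite ways in IPMK cKO replicate 1, where Psat1 was 3.14-fold above and Psph 7.49-fold below the median of the other libraries. Phgdh, at 21.8, 19.95 and 30.8 against 10.7, 9.93 and 24.8 CPM, had a log2 fold change of −0.67 (SE 0.67). The end of the Phgdh transcript shares 50-base runs with processed pseudogenes, so its counts are uncertain. Shmt2 was at 38.9, 32.7 and 39.5 CPM for wild type, against 46.4, 37.9 and 24.6 CPM for IPMK cKO (log2 fold change −0.03, SE 0.46), with the groups overlapping. Its 3′ end overlaps Ndufa4l2 on the other strand by 32 bases.

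Asns, the asparagine synthetase and a sensitive reporter of ATF4 in many cells, was low and uneven between libraries. It had 34, 1 and 11 counts in wild type and 0, 2 and 35 counts in IPMK cKO (log2 fold change −0.48, SE 2.42). Without IPMK cKO replicate 1 the estimate was 0.08 (SE 2.64). Asns had no count in the library with the highest Atf4. That result is compatible with levels up to 0.422 CPM (the 3-count floor, counting error alone).

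**Figure D2:**
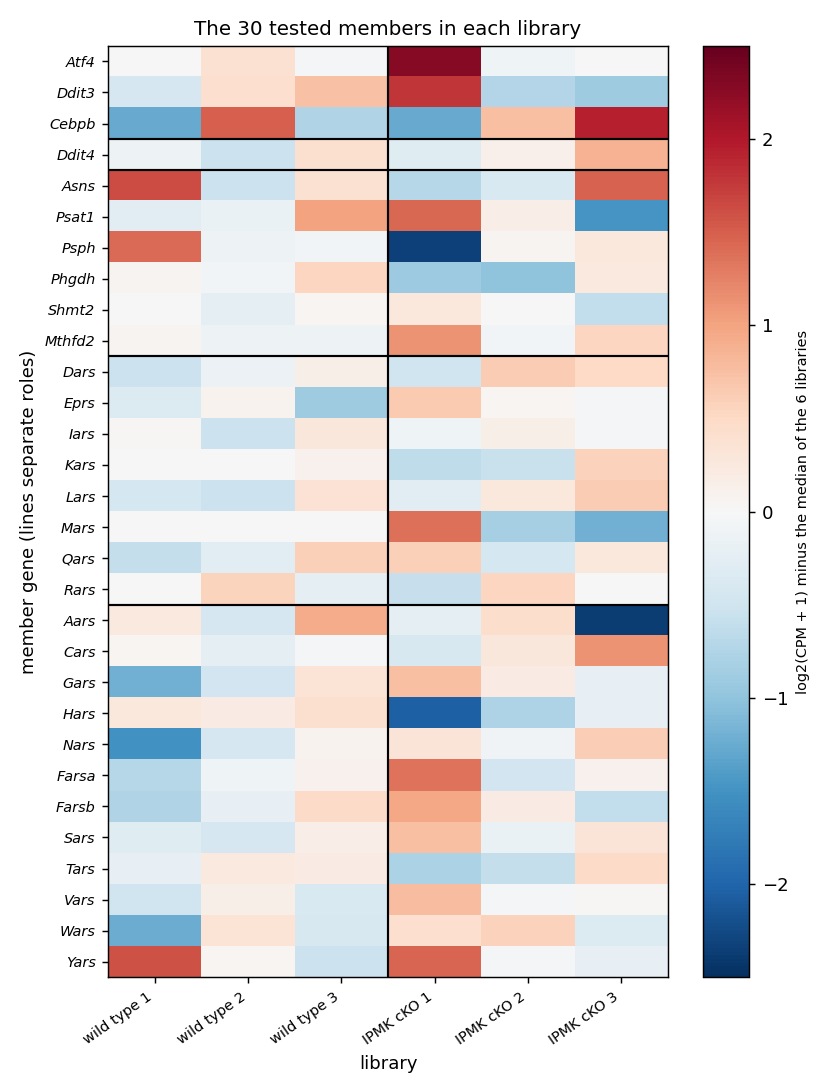
The 30 tested members (rows, with lines between roles) in each library (columns), coloured by log2(CPM + 1) minus the median of the 6 libraries. In the column of IPMK cKO replicate 1, Atf4, Ddit3, Psat1, Mars, Farsa and Yars are red while Psph and Hars are blue.

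Aminoacyl-tRNA synthetases join each amino acid to its transfer RNA. Of the 20 cytosolic synthetase genes, all passed the filter, 14 lay above 0 and 6 below 0 (median 0.40 on the log2 scale), and 0 were called in either direction. Without IPMK cKO replicate 1 there were 13 above and 7 below, with a median of 0.13. Their summed level was 950, 1137 and 1327 CPM for wild type, against 1800, 1143 and 1346 CPM for IPMK cKO. Replicate 1 of IPMK cKO was the highest, replicate 2 lay within the wild type range and replicate 3 lay just above it.

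Part of the cytosolic synthetases sit together on the multi-synthetase complex. Among its 8 genes, 6 estimates were above 0 and 2 below (median 0.22, or 0.13 with the same counts without IPMK cKO replicate 1). Eprs, the bifunctional glutamyl-prolyl enzyme, was at 114, 153 and 77.4 CPM for wild type, against 229, 150 and 138 CPM for IPMK cKO (log2 fold change 0.58, SE 0.35). Its groups overlapped because wild type replicate 2 was as high as the lower IPMK cKO libraries. Lars, which also senses leucine for mTORC1, was at 47.6, 44.5 and 84.0 CPM for wild type, against 53.9, 78.1 and 101.3 CPM for IPMK cKO (0.40, SE 0.40). Dars was at 28.6, 38.1 and 46.4 against 29.7, 66.1 and 59.8 CPM (0.46, SE 0.46), with IPMK cKO replicate 1 inside the wild type range for both.

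Kars, the lysyl enzyme shared with mitochondria, was at 76.0, 78.0 and 83.2 CPM for wild type, against 49.4, 52.0 and 116 CPM for IPMK cKO. Wild type was narrow and IPMK cKO lay on both sides of it, with a log2 fold change of −0.13 (SE 0.40). Qars, the glutaminyl enzyme, was at 48.0, 60.4 and 111 CPM for wild type, against 111, 53.0 and 87.5 CPM for IPMK cKO (0.20, SE 0.42). Iars, the isoleucyl enzyme, was at 27.1, 18.04 and 32.6 against 24.6, 29.8 and 26.3 CPM (0.05, SE 0.53). Rars, the arginyl enzyme, was at 28.4, 42.1 and 24.1 against 18.9, 41.8 and 28.5 CPM (−0.08, SE 0.53). In these 3 genes the groups overlapped, and without IPMK cKO replicate 1 Qars was at −0.06 (SE 0.41) and Rars at 0.15 (SE 0.47). The end of Iars shares 50-base runs with a processed pseudogene. The scaffolds of the complex that passed the filter, Aimp1 and Aimp2, had 0.46 (SE 0.34) and 0.51 (SE 0.56). Aimp2 was highest in IPMK cKO replicate 1, at 53.9 CPM against 18.7 to 41.5 CPM elsewhere.

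Among the 12 genes of free synthetases, 8 estimates were above 0 and 4 below (median 0.53). Without IPMK cKO replicate 1 there were 7 above and 5 below, with a median of 0.13. Hars, the histidyl enzyme, was the member with the most negative estimate and the 1 whose groups did not overlap. It was at 39.1, 37.7 and 43.3 CPM for wild type, against 7.18, 18.6 and 28.1 CPM for IPMK cKO. The means were 40.0 ± 2.89 and 17.9 ± 10.5 CPM (mean ± SD, 3 libraries each; log2 fold change −1.16, SE 0.59, edgeR unadjusted p = 0.0780, adjusted p = 0.9999). Without IPMK cKO replicate 1, the lowest library, it was −0.78 (SE 0.45). Its mitochondrial counterpart Hars2 is transcribed the opposite way from an overlapping 5′ end. Hars2 was at 15.04, 21.6 and 25.3 CPM for wild type, against 33.8, 32.3 and 15.5 CPM for IPMK cKO (0.40, SE 0.59), so it was not low in the library where Hars was lowest.

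Farsa and Farsb encode the subunits that together form the phenylalanyl enzyme. Farsa was at 75.3, 116 and 133 CPM for wild type, against 318, 89.1 and 134 CPM for IPMK cKO (0.74, SE 0.46). Farsb was at 45.1, 65.9 and 107 CPM for wild type, against 149, 88.2 and 49.4 CPM for IPMK cKO (0.40, SE 0.46). Both subunits had wild type replicate 1 lowest and IPMK cKO replicate 1 highest. Without the latter their log2 fold changes were 0.04 (SE 0.32) and −0.08 (SE 0.41). The 3′ end of Farsb overlaps Sgpp2 on the other strand, so its counts carry the same limit as those of Ddit3.

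Nars, the asparaginyl enzyme, had the highest estimate of the synthetases. It was at 20.1, 44.5 and 63.6 CPM for wild type, against 74.4, 55.9 and 91.7 CPM for IPMK cKO (0.79, SE 0.46), and the groups overlapped through IPMK cKO replicate 2 and wild type replicate 3. The estimate was 0.79 (SE 0.47) on leaving out IPMK cKO replicate 1, but 0.45 (SE 0.44) on leaving out wild type replicate 1 and 1.19 on leaving out wild type replicate 3. Sars, the seryl enzyme, was at 122, 112 and 168 CPM for wild type, against 256, 135 and 189 CPM for IPMK cKO (0.52, SE 0.33). Gars, the glycyl enzyme that also serves mitochondria, was at 17.9, 30.2 and 54.2 against 72.2, 48.7 and 36.7 CPM (0.62, SE 0.51). For both the lowest IPMK cKO library was inside the wild type range, and without IPMK cKO replicate 1 the estimates were 0.26 (SE 0.28) for Sars and 0.32 (SE 0.50) for Gars.

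Aars, the alanyl enzyme, was at 32.6, 20.2 and 52.7 CPM for wild type, against 22.8, 37.1 and 4.47 CPM for IPMK cKO (−0.72, SE 0.74). The low value was that of IPMK cKO replicate 3 alone, and the 3′ end of Aars is shared with Exosc6 on the same strand. Tars, the threonyl enzyme, was at 75.8, 104 and 102 CPM for wild type, against 50.5, 57.7 and 123 CPM for IPMK cKO (−0.29, SE 0.40). Yars, the tyrosyl enzyme, was at 20.2, 6.29 and 3.85 CPM for wild type, against 18.2, 5.75 and 5.07 CPM for IPMK cKO (−0.07, SE 1.10). Without IPMK cKO replicate 1 the estimate of Yars was −0.91 (SE 1.22). Replicate 1 of each genotype was the high library for Yars, and the other 4 libraries lay between 3.85 and 6.29 CPM. Vars, the valyl enzyme, was at 32.6, 51.4 and 35.4 against 79.9, 45.5 and 47.3 CPM (0.53, SE 0.42). Wars, the tryptophanyl enzyme, was at 8.30, 26.8 and 15.5 against 28.4, 31.7 and 16.2 CPM (0.59, SE 0.67). Cars, the cysteinyl enzyme, was at 14.2, 11.3 and 13.1 against 10.1, 16.7 and 31.0 CPM (0.58, SE 0.73). Vars was at 0.22 (SE 0.39) without IPMK cKO replicate 1. Each of the 3 had at least 1 IPMK cKO library within the wild type range or below it.

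**Figure D3:**
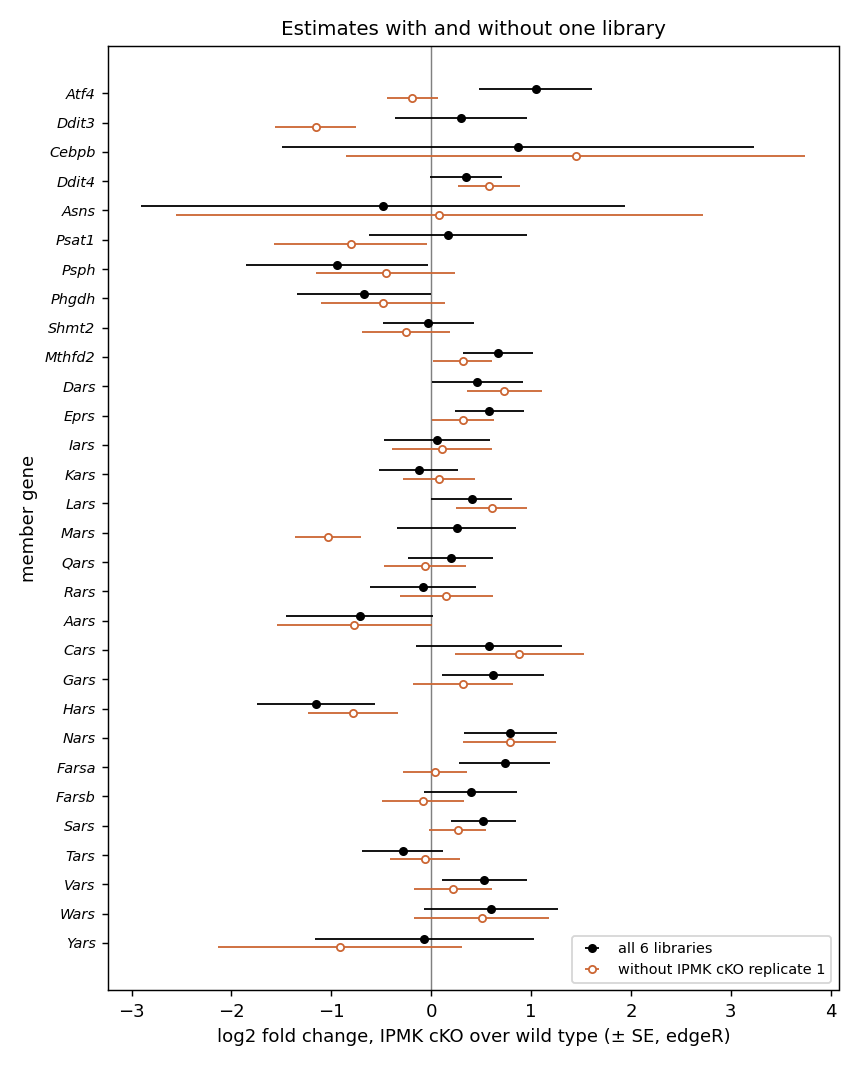
Log2 fold change of IPMK cKO over wild type (x axis, ± SE from edgeR) for the 30 tested members, with all 6 libraries (black) and without IPMK cKO replicate 1 (open orange). Atf4 goes from 1.05 to −0.19 and Mars from 0.25 to −1.03, while Nars is at 0.79 in both, though 0.45 without wild type replicate 1, which is not drawn.

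The high Atf4 library was examined for the other members. In IPMK cKO replicate 1, 8 of the 30 tested members were more than 2-fold above the median of the other 5 libraries, against 19.6% of all genes tested. They were Atf4, Ddit3, Psat1, Mthfd2, Mars, Farsa, Farsb and Yars. Atf4 is counted here although its high level was the reason for examining this library. Ddit3 and Mars are counted separately although their 3′ ends overlap. More than 2-fold below were 6 members, Cebpb, Asns, Psph, Phgdh, Hars and Tars, against 32.9% of all genes tested. The library was the highest of the 6 for 12 members, Atf4 among them, against 29.2% of all genes tested. In each other library between 1 and 4 members were more than 2-fold above and between 1 and 4 below, where 12.3% to 13.3% of all genes tested were above and 8.03% to 20.5% below. The median log2 ratio of the members, Atf4 included, to the other libraries was 0.35 in IPMK cKO replicate 1, beside −0.15 over all genes tested. Of the 6 tested members with the ATF4 core in their window, 1 (Yars) was more than 2-fold above and 2 (Asns and Tars) more than 2-fold below in this library.

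The Rn45s share and the number of genes with a count did not set that library apart. Its Rn45s share was 31.3%, against 21.0%, 31.7% and 16.7% for wild type and 32.1% and 19.9% for the other IPMK cKO libraries. The number of genes with a count was 10311 there and 10354 in wild type replicate 1, the next lowest. Its TMM factor did stand apart, at 0.793 against 0.918 to 1.169 in the other libraries. A lower factor gives a higher CPM for the same count and library total. Single markers of other cells went both ways in it. The summed level of B and plasma cell markers was 66.7 CPM there (19.7 to 54.1 CPM in wild type, 25.0 and 28.1 CPM in the other IPMK cKO libraries), most of it Cd74 at 58.5 CPM (48.5 CPM in wild type replicate 2). Cd79a, of the same list, was also highest there, at 8.02 CPM against 0 to 0.624 CPM elsewhere. Cd79b, of that list too, was lowest there at 0.141 CPM, against 4.78 to 14.2 CPM elsewhere. That of CD8 T and NK cell markers was 53.9 CPM there (28.9 to 40.6 CPM in wild type, 21.0 and 22.3 CPM in the others), most of it Nkg7 at 51.8 CPM, whereas Cd8b1 was lowest there at 2.11 CPM, against 5.89 to 12.2 CPM elsewhere. With counts in at least 1 library were 7 of the 8 B and plasma cell markers, 3 of 5 CD8 T and NK cell markers, 8 of 9 myeloid and dendritic cell markers and 7 of 8 erythroid markers. The myeloid sum was 1.56 to 13.5 CPM for wild type, against 1.27 to 14.9 CPM for IPMK cKO, led by Xcr1 and Cd68, and the erythroid sum, led by Hba-a1, was 0.1203 to 60.7 and 0 to 19.6 CPM. The part of the Rn45s share, the number of genes with a count and the marker levels in the member levels was not tested. Values with library totals in place of TMM are given with the processing. In whole sorted populations, fewer cells expressing a gene and less RNA per cell cannot be told apart.

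Genes upstream of ATF4 were read from a list of eIF2 kinases, eIF2 and eIF2B subunits and the eIF2 phosphatase regulators. All 16 were tested, with 9 estimates above 0 and 7 below (median 0.04), and 0 were called in either direction. Without IPMK cKO replicate 1 there were 11 above and 5 below, with a median of 0.16. Eif2ak1, the haem-regulated kinase, was at 36.6, 32.7 and 25.8 CPM for wild type, against 57.3, 44.6 and 54.8 CPM for IPMK cKO (0.72, SE 0.42), without overlap. The eIF2 subunits went opposite ways in IPMK cKO replicate 1. Eif2s2 was at 238, 275 and 302 CPM for wild type, against 729, 249 and 312 CPM for IPMK cKO (0.66, SE 0.39), whereas Eif2s1, which carries the phosphorylated residue, was at 50.3, 43.5 and 58.6 against 9.29, 23.1 and 43.6 CPM (−0.9998, SE 0.57).

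Further ATF4 targets outside the members had mostly negative estimates. Of 28 listed, 15 were tested, with 3 estimates above 0 and 12 below (median −0.50, or −0.36 with 5 above and 11 below without IPMK cKO replicate 1), and 0 were called. Cebpg, a C/EBP partner of ATF4, was at 55.6, 62.5 and 69.5 CPM for wild type, against 41.2, 46.2 and 45.3 CPM for IPMK cKO (−0.50, SE 0.36), without overlap. Slc3a2, the heavy chain of amino acid exchangers, was at 90.6, 110 and 108 CPM for wild type, against 34.9, 77.7 and 91.1 CPM for IPMK cKO (−0.60, SE 0.39). It was lowest in the library with the highest Atf4. Slc7a1, the arginine and lysine carrier, had 0.48 (SE 0.42). Their summed level in that library was 586 CPM, below the 718 to 822 CPM range of the other 5.

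The ATF6 and XBP1 arms of the unfolded protein response, which act beside the ATF4 arm, had 16 of 17 genes tested, with 3 estimates above 0 and 13 below (median −0.54) and 0 called. Sdf2l1, an endoplasmic reticulum chaperone partner, was at 33.3, 15.03 and 14.7 CPM for wild type, against 4.36, 8.62 and 10.1 CPM for IPMK cKO (−1.44, SE 0.81), without overlap. The chaperones Hsp90b1 and Dnajb11 had −0.44 (SE 0.32) and −1.32 (SE 1.02). Without IPMK cKO replicate 1 the list had 4 estimates above 0 and 12 below, with a median of −0.29. Handling stress genes, with 6 of 7 tested, had 2 above and 4 below (median −0.35) and 0 called. Without IPMK cKO replicate 1 all 7 were tested, with 1 above 0, 6 below and a median of −0.52. Dnajb1 had −0.65 (SE 0.38), Hsph1 −1.10 (SE 1.17) and Egr1 −0.15 (SE 0.34).

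Mitochondrial synthetases, which charge transfer RNA inside the organelle, had 11 estimates above 0 and 5 below among the 16 of 17 tested (median 0.20), and 0 were called. Without IPMK cKO replicate 1 the counts were 8 and 9, with a median of −0.01. Iars2 had 0.49 (SE 0.40), Aars2 1.83 (SE 1.69) and Rars2 −1.10 (SE 1.11). The wild type coefficient of variation had a median of 77.8% over these genes, against 29.0% over the cytosolic synthetases.

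**Figure D4:**
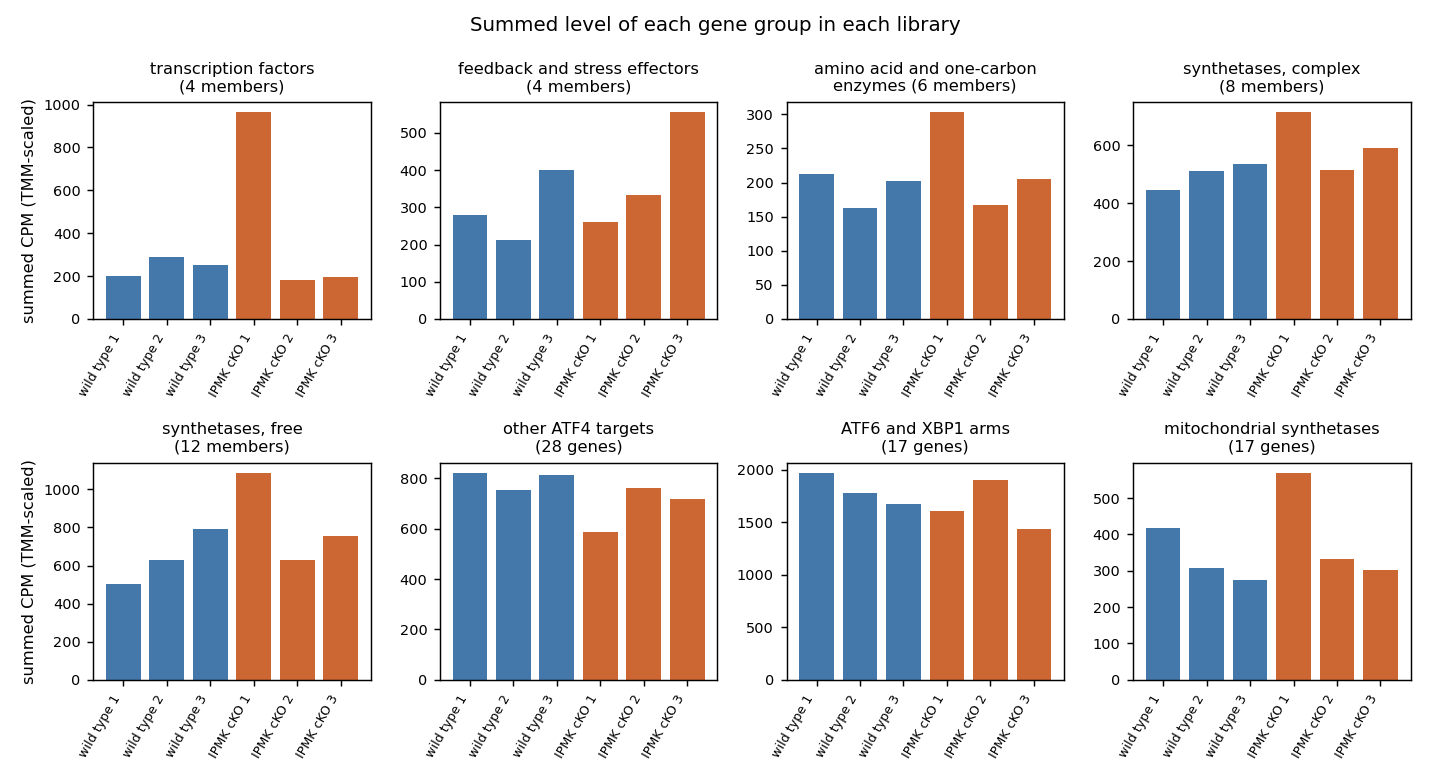
Summed CPM (y axis, from 0) of the 5 member groups and 3 neighbouring lists in each wild type (blue) and IPMK cKO (orange) library, 1 bar a library. The transcription factors reach 965 CPM for IPMK cKO replicate 1 against 183 to 289 CPM in the other libraries, while the sum of the other ATF4 targets is lowest there at 586 CPM.

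Sums by role followed their most abundant genes. The transcription factors, mostly Atf4, summed to 200, 289 and 254 CPM for wild type, against 965, 183 and 196 CPM for IPMK cKO. The amino acid and one-carbon enzymes summed to 212, 163 and 203 CPM for wild type, against 303, 167 and 206 CPM for IPMK cKO. The feedback and stress effectors, nearly all Ddit4, summed to 278, 213 and 400 against 261, 334 and 556 CPM. They were the exception among the roles in that IPMK cKO replicate 1 was not their highest library. All members without Atf4 summed to 1484, 1599 and 2030 CPM for wild type, against 2572, 1682 and 2147 CPM for IPMK cKO, with replicate 1 of IPMK cKO the highest and the groups overlapping. No test was made of these sums, because the members were chosen with results of these data known.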

How the data were processed

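Each deposited file gives 1 library as raw counts, whole numbers by gene symbol without normalization by the authors, per the file headers. The kit was Lexogen QuantSeq, which tags transcripts near the 3′ end, per the labels' protocols. Bowtie2, edgeR, mm10 and hg19 are named, per the submitters' processing notes, with neither role nor version, while no source used here gives the counting program, annotation or strand setting. The members and lists were chosen with earlier results of these data known.

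Counts were tested in R 4.3.3 with edgeR 4.0.16 (TMM, filterByExpr with a minimum of 10 counts, quasi-likelihood F test, Benjamini-Hochberg adjustment over the 10475 genes tested, threshold 0.05). The SE is the estimate over the square root of F. The 79 entries that shared 35 symbols were kept apart. Named genes were all members, the 3 tested genes of each neighbouring list with the smallest p, Ipmk, Rn45s and fixed marker genes. The fixed markers named were Foxp3, Cd4 and the most abundant gene of each list of another cell type. Other named markers, Hars2, Sesn2 counts and genes named in the closing part as such were chosen after their values were seen. Alternatives were DESeq2 1.42.0, limma-voom (limma 3.58.1), other size factors and filters, the replicate number as a block, and leaving out libraries. Coordinates and overlaps are from GENCODE M21 (mm10), and promoter windows from RefSeq. The procedure was tested on simulated data. Depth was 7464546 to 8980395 counts per library. Floors cover counting error alone, as tags without molecular identifiers may repeat a molecule. The promoter site of 1 member and some marker genes are not reported here.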

Additional observations from a re-analysis of the deposited data

How the results depend on the processing

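The count of members called was 0 in every setting run. The count of all genes called was 0 in most and 3 with DESeq2 (S100a6, S100a11 and Smpdl3b) and 1 (Gdpd3) without IPMK cKO replicate 1, as also on leaving out both libraries numbered 1. The median log2 fold change of the members was 0.32; it was 0.0264 with library totals only, where the median of all genes tested moved to −0.17, and 0.0940 without both libraries numbered 1. Leaving out 1 library at a time gave medians of 0.0812 (without IPMK cKO replicate 1) to 0.54 (without wild type replicate 3), 18 to 23 members above 0 and 9 to 13 below, and 0 to 1 genes called. With library totals only, 15 members were above 0 and 15 below, the members highest in IPMK cKO replicate 1 numbered 7 and not 12, and Atf4 was 3.45-fold above the other libraries there. That setting differs only in leaving out the TMM factors, of which that of IPMK cKO replicate 1 was the lowest at 0.793. The cause of the other changes was not tested. In all, 14 of the 30 tested members kept their sign in all 16 settings, and 16, Atf4, Ddit3, Mars, Farsa and Farsb among them, changed it in at least 1. With the replicate number as a block, 18 members were above 0 and 12 below, the median was 0.27 and 0 genes were called. Deviations of same-numbered libraries correlated at 0.0454, 0.0877 and 0.0265 across genes. Each library correlated best with its own number, but these values are small and whether the numbers mark pairs was not tested. Depth limits Atf3 and Chac1, which were at or under the 3-count floor in every library. Trib3, Sesn2, Asns and Cebpb were under it in some libraries and well above it in others.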

Other observations

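Some genes of the neighbouring lists were nearly absent from the library with the highest Atf4. These were picked after their values were seen and are given as values. Syvn1, a ubiquitin ligase of the endoplasmic reticulum, was at 0.563 CPM for IPMK cKO replicate 1 and at 16.4 to 76.3 CPM in the other 5 libraries. Ppp1r15b, which guides the phosphatase of eIF2, was at 5.49 CPM there and at 83.2 to 108 CPM elsewhere. Eif2ak3, the kinase PERK that senses unfolded protein, had 0 counts there and was at 6.01 to 17.8 CPM elsewhere. Atf5, a relative and target of ATF4, went the other way, at 45.3 CPM there and 0 to 9.88 CPM elsewhere.

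Lars2, the mitochondrial leucyl-tRNA synthetase, varied more within each genotype than between them. It was at 141, 44.0 and 24.1 CPM for wild type, against 197, 49.3 and 9.23 CPM for IPMK cKO replicates 1 to 3, highest in replicate 1 and lowest in replicate 3 of each genotype. The kinase Eif2ak4, known as GCN2, and its activator Gcn1l1 differed in direction. Eif2ak4 was at 13.6, 25.6 and 26.4 CPM for wild type, against 11.4, 9.54 and 9.13 CPM for IPMK cKO (log2 fold change −1.12, SE 0.71), and Gcn1l1 at 34.2, 33.9 and 31.5 against 48.8, 53.3 and 55.8 CPM (0.67, SE 0.40). In neither gene did the groups overlap, and neither was called (edgeR adjusted p = 0.9999 for each).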
